A study of Trichoderma reesei with 6 samples.

Results

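Filamentous fungi sense nutrients and partners through G-protein coupled receptors, membrane proteins that pass a signal from outside the cell to heterotrimeric G-proteins and often on to adenylate cyclase and the cAMP-dependent protein kinase. Receptors of the PTH11 type are named after a protein that the rice blast fungus Magnaporthe needs to recognise a host surface, and they form a family that has expanded in filamentous ascomycetes. Receptors annotated as secretin-like carry the membrane domain of the animal secretin receptor family, whose animal members bind peptide hormones. The ligands of the genes described here are not given in the sources used.

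The genes described are TRIRE2_109146, annotated as a PTH11 type receptor, and TRIRE2_123806 and TRIRE2_72627, both annotated as secretin-like. These 3 genes of the 9126 array features were chosen by gene ID after their values on these arrays were known, because the study had listed them among genes over 2-fold different between lactose and both other carbon sources. Their lactose contrasts are therefore a description and carry no test. The difference between glucose and glycerol was not used in that choice, although it comes from the same arrays, and it was tested.

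Mycelium of Trichoderma reesei QM9414, an early mutant bred for cellulase production, was grown in shake flasks with lactose, glucose or glycerol at 10 g/l, and RNA was hybridised to 6 single-colour arrays, 2 for each carbon source. Lactose, the disaccharide of milk, is a carbon source on which this fungus forms cellulases, glucose is a repressing sugar and glycerol is a carbon source without known cellulase induction. The labels give 28 h of growth for lactose and 24 h for glucose and for glycerol, whereas the methods give 1 common time, so carbon source and culture time cannot be told apart by the labels. All groups share the strain, and the labels speak both of duplicate flasks and of mixed replicates, so p-values measure the spread between arrays, which may be technical. Values are log2 signals, 1 per gene and array, on which a difference of 1 is a 2-fold change, and levels of different genes are not set against each other because each gene has its own probes. Signals ran from 2.70 to 15.90, array medians lay between 10.80 and 10.85, and replicates correlated across genes with r between 0.996 and 0.998. Signals under 4.66, the lowest 10% of all values, are called the low end here, and folds that reach into it are imprecise.

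The PTH11 type gene TRIRE2_109146 had log2 signals of 8.62 and 8.71 on lactose, 2.93 and 2.87 on glucose and 2.91 and 2.97 on glycerol. Both lactose arrays were high and all 4 other arrays were at the low end, with a distance of 5.65 between the lowest lactose array and the highest of the others. Group means (± SD, n = 2 arrays each) were 8.67 ± 0.063 with lactose, 2.90 ± 0.041 with glucose and 2.94 ± 0.045 with glycerol. The fitted log2 difference was 5.77 against glucose (SE 0.11), or 54.5-fold, and 5.73 against glycerol, or 53.0-fold. With every low signal raised to the low end, the transcript was at least 16.1-fold higher on lactose than on glucose and at least 16.1-fold higher than on glycerol. Glucose and glycerol did not differ beyond the spread between arrays (log2 difference -0.04, SE 0.11, limma adjusted p = 0.805), and since both groups were at the low end a difference there was not measurable.

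The secretin-like gene TRIRE2_123806 had log2 signals of 11.04 and 11.36 on lactose, 5.93 and 6.21 on glucose and 7.31 and 7.90 on glycerol. All 6 arrays were above the low end and no carbon source overlapped another, so that lactose was highest, glycerol intermediate and glucose lowest. Group means (± SD, n = 2 arrays each) were 11.20 ± 0.22 with lactose, 6.07 ± 0.20 with glucose and 7.60 ± 0.42 with glycerol. The difference was 5.13 against glucose (SE 0.21), or 35.0-fold, and 3.60 against glycerol, or 12.1-fold. On glucose the transcript was 2.89-fold lower than on glycerol (log2 difference -1.53, SE 0.21, limma adjusted p = 0.000481).

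The other secretin-like gene, TRIRE2_72627, had log2 signals of 8.69 and 8.74 on lactose, 4.57 and 4.83 on glucose and 5.40 and 5.87 on glycerol. The order of the carbon sources was that of TRIRE2_123806, again without overlap, but 1 glucose array was at the low end. Group means (± SD, n = 2 arrays each) were 8.71 ± 0.035 with lactose, 4.70 ± 0.19 with glucose and 5.64 ± 0.34 with glycerol. The difference was 4.01 against glucose (SE 0.17), or 16.2-fold and 15.7-fold with the low array raised to the low end, and 3.08 against glycerol, or 8.45-fold. On glucose the signal was 1.91-fold lower than on glycerol (log2 difference -0.94, SE 0.17, limma adjusted p = 0.00256), a difference beyond the spread between arrays. It was under 2-fold with all arrays and passed 2-fold without glucose replicate 2 (-1.07) or glycerol replicate 1 (-1.17).

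**Figure D1:**
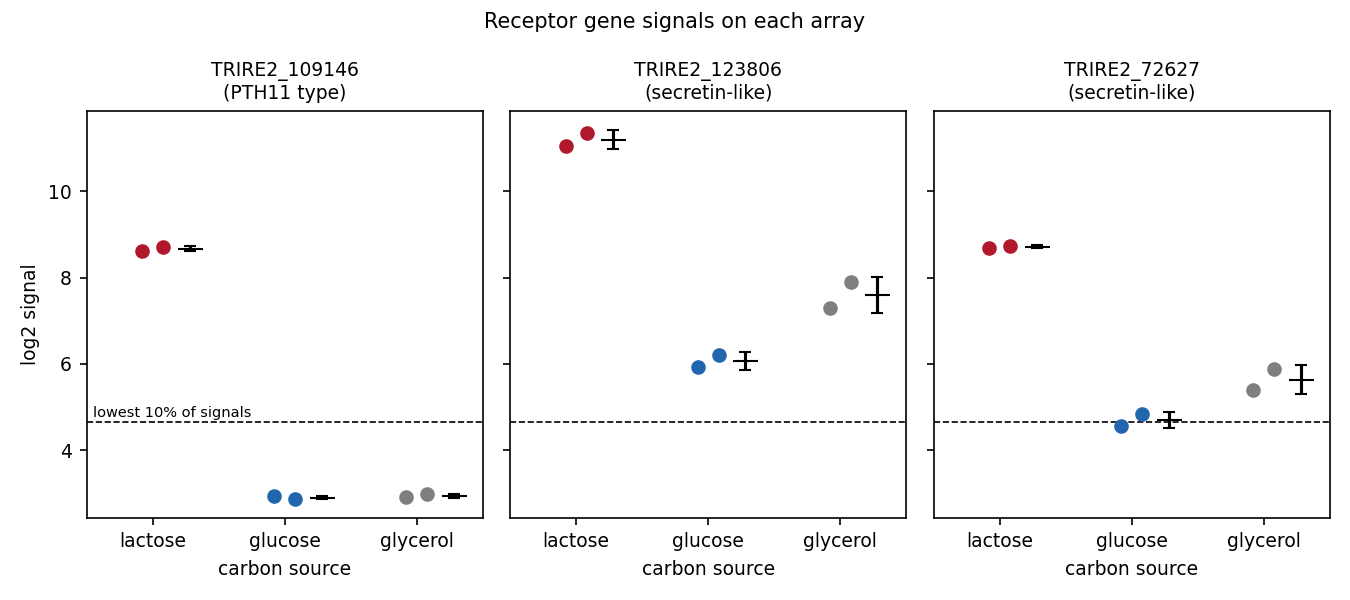
Log2 signal of each receptor gene on each array (points; vertical axis) by carbon source, with the mean and SD of 2 arrays beside the points and the low end of the arrays as a dashed line. The lactose arrays of all 3 genes lay at 8.62 or higher, the glucose and glycerol arrays of the PTH11 type gene lay at 2.97 or lower, and both secretin-like genes were lower on glucose than on glycerol.

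Throughout, a call means a change of over 2-fold and an adjusted p (Benjamini-Hochberg, limma) under 0.05. All 3 receptor genes were called higher on lactose than on glucose, where 15.5% of all features were called higher, higher than on glycerol, where 14.6% were, and higher in both, where 10.2% were. Since these contrasts chose the genes, nothing is read from those shares. By size of the lactose difference, TRIRE2_109146 ranked 52 of 9126 against glucose and 38 against glycerol, TRIRE2_123806 ranked 84 and 143, and TRIRE2_72627 ranked 175 and 217. With low signals of all features raised to the low end, TRIRE2_109146 ranked 151 against glucose and 92 against glycerol, TRIRE2_123806 ranked 66 and 130, and TRIRE2_72627 ranked 157 and 200. Against glucose the place of the PTH11 type gene among the 3 thus depended on signals at the low end, and the order of the genes is not established. Between glucose and glycerol, TRIRE2_123806 was the 1 gene of the 3 called lower on glucose with all arrays, a call made for 9.07% of all features, and TRIRE2_72627 gained that call in both settings named above. By the adjusted p alone both secretin-like genes differed between glucose and glycerol, and 42.7% of all features did so in either direction.

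Replicate arrays of the secretin-like genes lay further apart on glycerol than those of most features. For TRIRE2_123806 glycerol array 2 exceeded array 1 by 0.59, a gap that 3.69% of all features exceeded, and for TRIRE2_72627 it exceeded array 1 by 0.47, a gap that 8.28% exceeded. Array 2 was also the higher one on lactose and on glucose. For TRIRE2_123806 the gap was 0.317 on lactose, which 10.9% of features exceeded, and 0.288 on glucose, which 15.3% exceeded. For TRIRE2_72627 it was 0.05 on lactose, which 76.4% exceeded, and 0.262 on glucose, which 18.9% exceeded. The median gap between the glycerol arrays was 0.17 over all features, against 0.12 between the lactose arrays and 0.13 between the glucose arrays. The PTH11 type gene had a glycerol gap of 0.063, which 77.9% of features exceeded. Without glycerol replicate 2 the log2 difference between glucose and glycerol was -1.24 for TRIRE2_123806 and -0.70 for TRIRE2_72627, and without glycerol replicate 1 it was -1.83 and -1.17. Both kept an adjusted p under 0.05 either way.

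Likeness of pattern was measured as the root mean square difference of log2 signals over the 6 arrays after each gene was centred on its own mean, so that 0 is the same pattern and size. The pair of secretin-like genes differed by 0.46, while TRIRE2_123806 differed from the PTH11 type gene by 0.91 and TRIRE2_72627 by 1.11. With low signals raised to the low end these distances became 0.48 within the pair, 0.68 for TRIRE2_123806 and 0.45 for TRIRE2_72627, so it is not established that the secretin-like genes are nearer to each other than to the PTH11 type gene. For comparison, the median feature differed by 2.75 from TRIRE2_109146, by 2.20 from TRIRE2_123806 and by 1.77 from TRIRE2_72627. TRIRE2_72627 was the 30th nearest feature to TRIRE2_123806, whereas TRIRE2_123806 was only the 87th nearest to TRIRE2_72627. Within a distance of 0.25 there were 8 features around TRIRE2_109146, 5 around TRIRE2_123806 and 12 around TRIRE2_72627. These distances describe 6 arrays that fall into 3 groups and carry no test.

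The 5 features most like the PTH11 type gene were TRIRE2_57643, an unknown protein, at 0.14, TRIRE2_120961 (cel61b), a GH61 lytic polysaccharide monooxygenase that cleaves cellulose oxidatively, at 0.15, TRIRE2_121418, a GDSL lipase, at 0.15, TRIRE2_109367, a protein without relatives, at 0.17, and TRIRE2_59364, an ISP4 type sexual differentiation protein, at 0.18. The monooxygenase gene averaged a log2 signal of 8.77 with lactose, 2.80 with glucose and 2.80 with glycerol. The lipase gene averaged 9.02 with lactose, 2.95 with glucose and 3.02 with glycerol. Both genes and TRIRE2_109367 were at the low end on glucose and on glycerol, as the receptor gene was, so their likeness on 4 arrays is one of low signals. TRIRE2_57643 was above the low end throughout, with means of 11.15 for lactose, 5.46 for glucose and 5.39 for glycerol, and so was TRIRE2_59364, with means of 13.71 for lactose, 8.02 for glucose and 8.34 for glycerol.

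The features most like TRIRE2_123806 were TRIRE2_123978, a GMC oxidoreductase, at 0.22, TRIRE2_107914, a protein without relatives, at 0.23, TRIRE2_106129, an unknown protein known only from ascomycetes, at 0.23, TRIRE2_56095, a permease of the major facilitator superfamily (MFS), at 0.23, and TRIRE2_112126, a methylmalonate semialdehyde dehydrogenase, at 0.23. All of these had the order lactose, glycerol, glucose, which their choice by likeness to TRIRE2_123806 had fixed. TRIRE2_107914 was at the low end on glucose, with a mean of 4.42, so its likeness there is imprecise. The permease gene averaged 14.27 with lactose, 9.45 with glucose and 10.84 with glycerol, a rise of 28.3-fold against glucose and of 10.8-fold against glycerol. The oxidoreductase gene averaged 13.62 with lactose, 8.72 with glucose and 9.92 with glycerol.

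The features most like TRIRE2_72627 were TRIRE2_109687, a shikimate dehydrogenase, at 0.12, TRIRE2_111567, a C2H2 zinc finger transcription factor, at 0.18, TRIRE2_120228, a Zn2Cys6 transcriptional regulator of the fungal zinc cluster type, at 0.19, TRIRE2_106258, an unknown protein, at 0.20, and TRIRE2_4682, a short chain dehydrogenase/reductase, at 0.21. The dehydrogenase TRIRE2_109687 averaged 10.05 with lactose, 5.82 with glucose and 6.79 with glycerol. The C2H2 factor averaged 11.27 with lactose, 7.50 with glucose and 8.44 with glycerol, and the Zn2Cys6 regulator 10.74 with lactose, 6.74 with glucose and 7.74 with glycerol. All 5 followed the order lactose, glycerol, glucose, which their choice by likeness to TRIRE2_72627 had fixed.

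**Figure D2:**
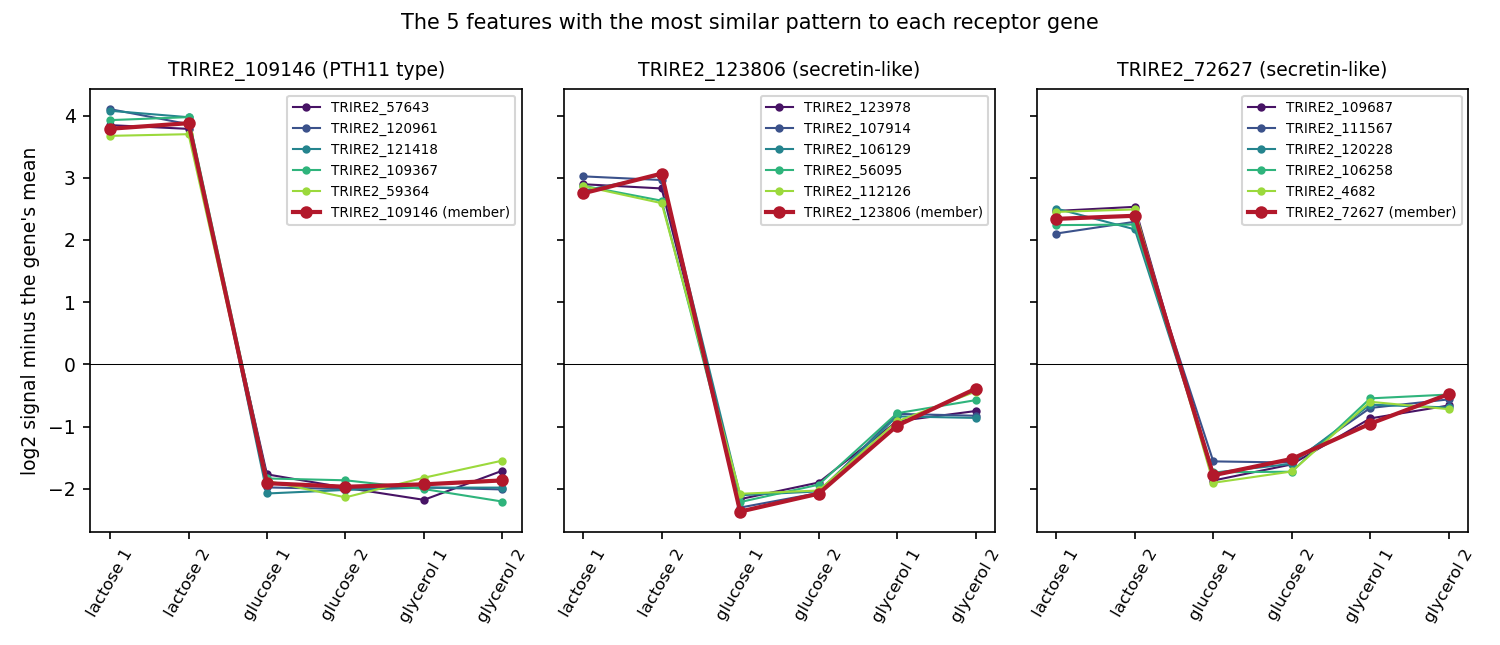
Log2 signal minus the gene's mean over the 6 arrays (vertical axis) by array for each receptor gene (thick red line) and the 5 features nearest to it. The features around TRIRE2_109146 were alike on glucose and glycerol, and those around both secretin-like genes lay lowest on the glucose arrays. Both traits follow from the choice of the features by likeness.

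The study's gene table annotates 11 further genes as G-protein coupled receptors, regulators of G-protein signalling or arrestins. It holds only genes selected on the same arrays for a difference between lactose and both other carbon sources, so their directions are no independent evidence. Of these 11, 4 were upregulated and 7 downregulated on lactose in both comparisons, where 10.2% of all features were called higher and 7.28% lower. The median log2 difference over the 11 genes was -1.20 against glucose and -1.35 against glycerol, beside -0.06 and -0.05 over all features.

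PTH11 type genes moved in both directions. TRIRE2_107042 had log2 signals of 6.33 and 6.39 on lactose, 3.58 and 3.90 on glucose and 4.79 and 4.85 on glycerol. It was 6.15-fold higher on lactose than on glucose, where it was at the low end, and 2.90-fold higher than on glycerol. With low signals raised to the low end its log2 difference against glucose was 1.70, against 2.62 as measured. The other 3 were lower on lactose. TRIRE2_122824 had 6.64 and 6.26 on lactose, 12.43 and 12.62 on glucose and 8.45 and 8.45 on glycerol, a fall of 67.4-fold against glucose and of 3.99-fold against glycerol. TRIRE2_76763 was 13.5-fold lower against glucose and 7.01-fold lower against glycerol, and its lactose arrays stood apart at 9.29 and 8.34 (SD 0.67). TRIRE2_122795 was 4.14-fold lower against glucose and 3.45-fold lower against glycerol. With TRIRE2_109146, the PTH11 type genes on the list were thus 2 higher and 3 lower on lactose.

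Both receptors annotated for mating type pheromones, which bind the peptide pheromone of the opposite mating type in ascomycetes, were higher on lactose. TRIRE2_57526 had log2 signals of 9.10 and 8.89 on lactose, 5.14 and 4.85 on glucose and 4.97 on both glycerol arrays, a rise of 16.0-fold against glucose and of 16.3-fold against glycerol. TRIRE2_64018 had 12.84 and 12.75 on lactose, 9.20 and 9.02 on glucose and 10.19 and 9.93 on glycerol, a rise of 12.8-fold against glucose and of 6.65-fold against glycerol. The receptor with an RGS domain, TRIRE2_63981, which combines a receptor with the domain that speeds GTP hydrolysis by Gα subunits, was 14.0-fold higher against glucose and 2.71-fold higher against glycerol. A rhodopsin type receptor, TRIRE2_27948, was 2.29-fold lower against glucose and 2.55-fold lower against glycerol.

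The 3 annotated genes for a regulator of G-protein signalling and for arrestins were all lower on lactose. Regulators of this type are known to end the active state of Gα subunits, and arrestins are known as adaptors that bind membrane proteins. The RgsA type regulator of G-protein signalling TRIRE2_72259 was 2.15-fold lower against glucose and 6.31-fold lower against glycerol, and its call against glucose was lost without lactose replicate 1 (log2 difference -0.98). The arrestin described as an effector of the small GTPase RhoA, TRIRE2_110655, was 2.49-fold lower against glucose and 5.07-fold lower against glycerol. The β-arrestin TRIRE2_81690, similar to CreD of Aspergillus, was 2.96-fold lower against glucose and 2.45-fold lower against glycerol.

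Between glucose and glycerol, the comparison that the selection did not use, 1 of the 11 genes was called higher on glucose, where 8.49% of all features were, and 4 were called lower, where 9.07% were. The PTH11 type gene TRIRE2_122824 was 16.9-fold higher on glucose than on glycerol (log2 difference 4.08, limma adjusted p = 2.29e-07). The receptor with an RGS domain TRIRE2_63981 was 5.15-fold lower on glucose than on glycerol (log2 difference -2.37, limma adjusted p = 1.58e-06), and TRIRE2_72259 was 2.94-fold lower. TRIRE2_107042 and TRIRE2_110655 were also called lower on glucose, by 1.08 and 1.02 on the log2 scale. These last calls were lost without glucose replicate 1 for TRIRE2_107042 (-0.92) and without glucose replicate 2 for TRIRE2_110655 (-0.95), and that of TRIRE2_107042 also with its low glucose signals raised to the low end (-0.16). The median log2 difference of the 11 genes was -0.15, beside 0.03 over all features.

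**Figure D3:**
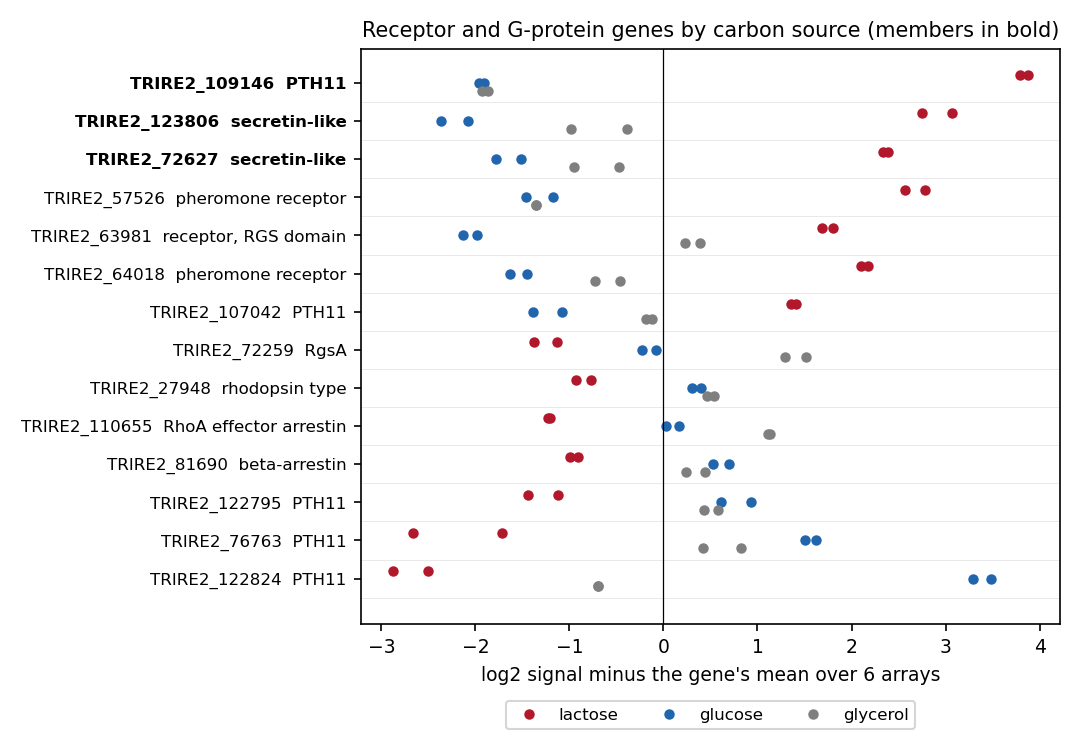
Log2 signal minus the gene's mean over the 6 arrays (horizontal axis) for the 3 receptor genes (bold) and the 11 further annotated genes, 1 point per array and colour by carbon source. Lactose lay apart from the other carbon sources in every row, by selection, while glucose lay below glycerol for both secretin-like genes and far above it for TRIRE2_122824.

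Part of the core of the pathway was examined through genes chosen by RefSeq symbol and not by signal. These were gna1, gna2 and gna3 for Gα subunits, acy1 for adenylate cyclase, pkac1, pkac2 and pkar1 for catalytic and regulatory subunits of the cAMP-dependent kinase, ras1 and ras2 for small GTPases and rgs1 for a regulator of G-protein signalling, 10 genes in all. Only 235 features carried a symbol, so the list is incomplete. It held no Gβ or Gγ gene, and the regulator TRIRE2_72259, which carried no symbol, could not enter it. None of the 10 was called in any of the 3 comparisons by limma, while 15.5% and 13.9% of all features were called higher and lower on lactose than on glucose and 14.6% and 12.5% than on glycerol. On glucose against glycerol, 8.49% of all features were called higher and 9.07% lower. At an unadjusted p under 0.05 there were 3 of 10 against glucose, 3 against glycerol and 2 between glucose and glycerol, of which 0 exceeded 2-fold. Over all features these shares were 66.2%, 63.4% and 49.5%.

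The largest differences within the core list were those of rgs1 (TRIRE2_54395), with log2 signals of 9.80 and 9.88 on lactose, 10.85 and 10.37 on glucose and 10.73 and 10.67 on glycerol. Its log2 difference was -0.77 against glucose (limma adjusted p = 0.00304) and -0.86 against glycerol (limma adjusted p = 0.00183), both under 2-fold. By adjusted p alone pkac2 (TRIRE2_65873) was lower on lactose than on glucose (-0.59) and on glycerol (-0.60), gna1 (TRIRE2_123302) was lower than on glucose (-0.54) and ras2 (TRIRE2_110960) was higher than on glycerol (0.74). These were, with rgs1, 3 of 10 genes in each lactose comparison, beside 62.9% of all features against glucose and 59.8% against glycerol. The gene of adenylate cyclase, acy1 (TRIRE2_124340), had 12.37 and 12.18 on lactose, 12.44 and 12.21 on glucose and 11.87 and 12.39 on glycerol, so that the groups overlapped. The median log2 difference over the 10 genes was -0.13 against glucose and 0.07 against glycerol.

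**Figure D4:**
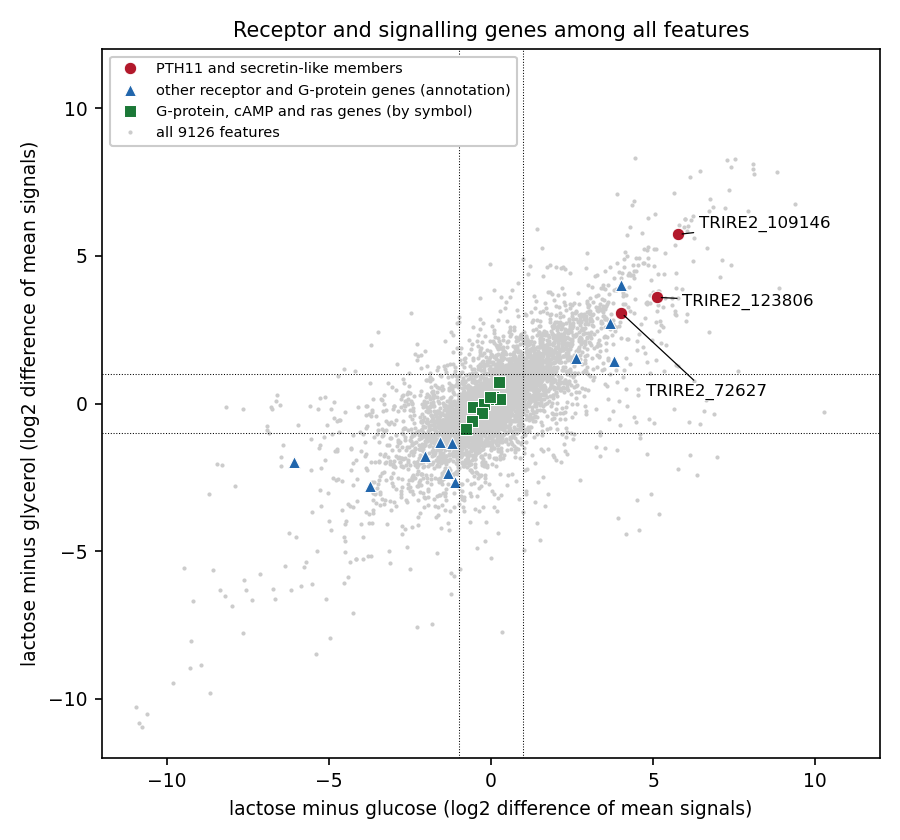
Log2 difference of lactose minus glucose (horizontal axis) against lactose minus glycerol (vertical axis) for all 9126 features (grey), the 3 receptor genes (red), the 11 annotated genes (blue) and the 10 core genes (green), with dotted lines at a 2-fold change. The axes share the lactose arrays; the receptor genes lay at 4.01 or higher on the horizontal axis and the core genes between -0.77 and 0.26.

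Genes next to the receptor genes were taken from the gene order of the QM6a reference assembly, 5 on either side of each, 30 in all. Of these 30 genes, 7 were called higher on lactose in both comparisons, beside 10.2% of all features, and 1 was called lower, beside 7.28%. The median log2 difference of the 30 genes was 0.34 against glucose and 0.43 against glycerol.

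Around the PTH11 type gene TRIRE2_109146, 1 of 10 neighbours was called higher in both comparisons, near the 10.2% of all features. This was the short chain dehydrogenase/reductase TRIRE2_22771, 3 genes away, which was 2.21-fold higher against glucose and 2.26-fold higher against glycerol. Its call was lost after quantile normalization (0.94 against glucose) and without glycerol replicate 2 (0.97 against glycerol). Against glucose alone 5 of the 10 were called higher, beside 15.5% of all features, and 1 lower, beside 13.9%. The 4 of these that were not called against glycerol, TRIRE2_64683, TRIRE2_64377, TRIRE2_49888 and TRIRE2_79671, had log2 differences against glycerol of 0.99, 0.96, 0.64 and 0.64. The genes directly on either side, TRIRE2_64720 and TRIRE2_109147, were at the low end on every array, where a change could not be measured, with means of 3.33 and 2.77 on lactose, 3.01 and 2.82 on glucose and 2.97 and 2.86 on glycerol.

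Around TRIRE2_123806, 3 of 10 neighbours were called higher in both comparisons, beside 10.2% of all features, and 1 lower, beside 7.28%. The adjacent gene TRIRE2_111446, a Zn2Cys6 transcriptional regulator, had log2 signals of 12.04 and 11.95 on lactose, 8.40 and 8.65 on glucose and 8.73 and 9.33 on glycerol. It was 11.1-fold higher against glucose and 7.83-fold higher against glycerol, and its glucose and glycerol arrays did not differ beyond their spread (limma adjusted p = 0.0679). The gene directly on the other side, TRIRE2_111444, was at the low end by its mean on each carbon source, and beyond it TRIRE2_111443, a protein without relatives, was 11.9-fold higher against glucose and 10.4-fold higher against glycerol. The sulfatase gene TRIRE2_111447 was 2.60-fold higher against glucose and 2.68-fold higher against glycerol, and TRIRE2_111450, an unknown protein 5 genes away, was 2.45-fold lower against glucose and 3.33-fold lower against glycerol.

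Around TRIRE2_72627, 3 of 10 neighbours were called higher in both comparisons, beside 10.2% of all features. They were the gene directly before TRIRE2_72627 and the pair directly after it in gene order. The gene directly after, TRIRE2_104322, a protein without relatives, had log2 signals of 14.24 and 14.02 on lactose, 8.95 and 8.81 on glucose and 11.38 and 11.60 on glycerol, a rise of 38.1-fold against glucose and of 6.25-fold against glycerol. The MFS permease TRIRE2_104320 was 6.01-fold higher against glucose and 2.04-fold higher against glycerol, and the tyrosinase TRIRE2_45445, of an enzyme class that oxidises phenols, was 6.39-fold higher against glucose and 2.04-fold higher against glycerol. Both of these calls against glycerol stood at the threshold and were lost when each array was centred on its median (0.999 and 0.997, just under a log2 difference of 1). That of the permease was also lost without glycerol replicate 1 (0.67) or lactose replicate 1 (0.95) and after quantile normalization (0.905), and that of the tyrosinase without glycerol replicate 2 (0.91).

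All 3 of these neighbours were also called lower on glucose than on glycerol, the order seen for TRIRE2_72627 itself. They were 6.09-fold lower for TRIRE2_104322 (limma adjusted p = 1.62e-06), 2.94-fold lower for TRIRE2_104320 (limma adjusted p = 0.000464) and 3.13-fold lower for TRIRE2_45445 (limma adjusted p = 2.49e-05). Over all 30 neighbours, 3 were called lower on glucose than on glycerol, beside 9.07% of all features, and 3 higher, beside 8.49%. The 3 lower genes were those next to TRIRE2_72627, whereas TRIRE2_111442 and TRIRE2_27939, close to TRIRE2_123806, were 4.88-fold and 2.76-fold higher on glucose than on glycerol. The third higher gene, TRIRE2_104318 near TRIRE2_72627, had 3.64 and 5.01 on glucose and 3.16 and 3.32 on glycerol, and its call was lost without glucose replicate 2 (0.40).

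**Figure D5:**
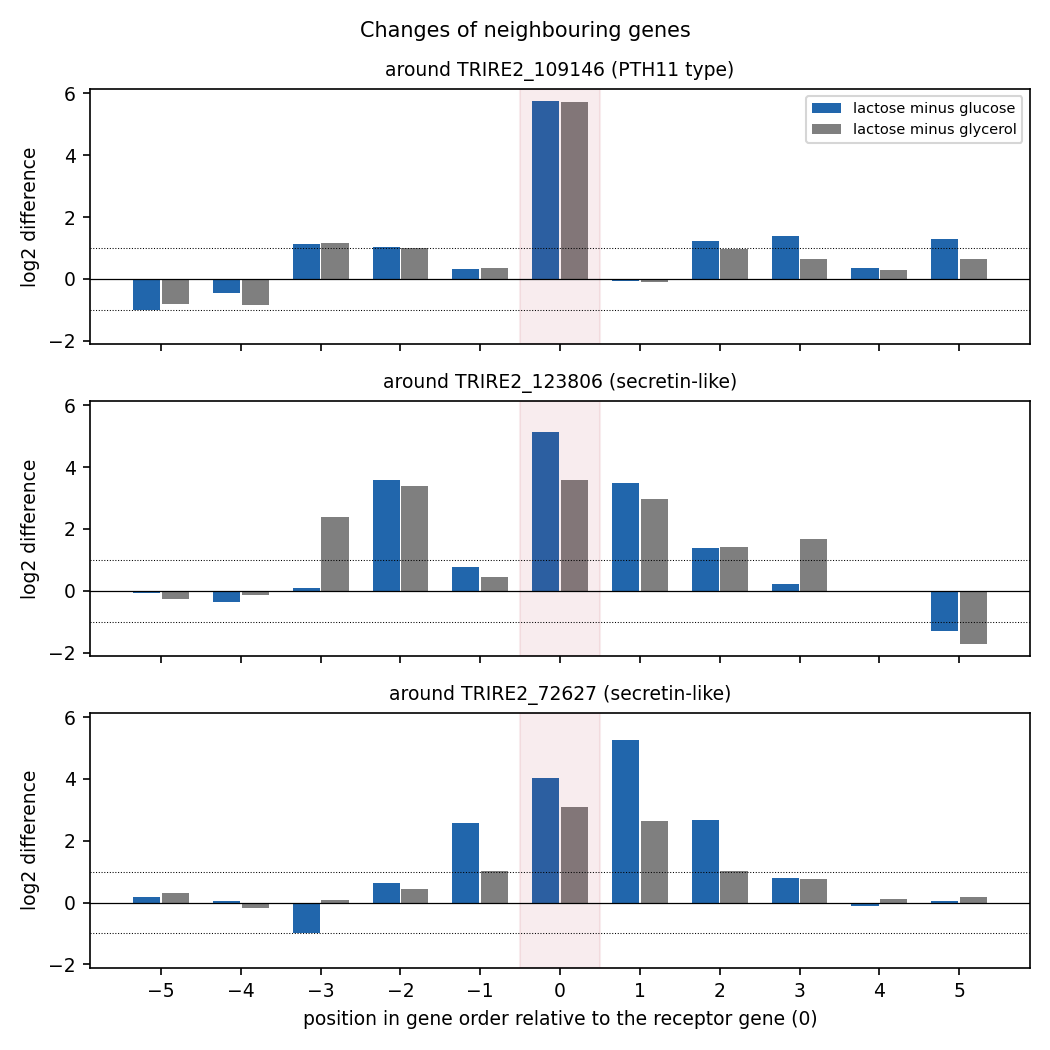
Log2 difference of lactose minus glucose (blue bars) and lactose minus glycerol (grey bars) for each receptor gene (position 0, shaded) and the 5 genes on either side in gene order (horizontal axis), with dotted lines at a 2-fold change. The genes directly beside TRIRE2_109146 were at the low end on all 6 arrays, so their short bars do not measure a change, and those directly beside TRIRE2_72627 lay above the upper dotted line in both comparisons.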

How the data were processed

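The authors deposited log2 signals, 1 per gene and array, summarised from several probes per gene by RMA (settings and between-array normalization: not given in the sources used here). A second deposited table holds the authors' group means, folds and p-values and was set aside. The number of unused columns with array values was 0.

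Groups came from the sample labels. The 6 arrays were fitted with limma 3.58.1 in R 4.3.3 (lmFit and eBayes at default settings, 3 groups in one fit, 3 residual and 5.10 prior degrees of freedom), with Benjamini-Hochberg adjustment over 9126 features and without a filter. Median residual SD was 0.133, and the number of arrays limits the precision. A gene was called at over 2-fold and an adjusted p under 0.05. On simulated data 50 of 50 genes changed 4-fold and 0 of 8926 unchanged ones were called for lactose against glucose. The simulation gave every gene the same spread (SD 0.135), whereas measured genes differ, with a residual SD of 0.299 for TRIRE2_123806. It therefore checked the procedure only and gives no error rate for these arrays. Python 3.11.15 with pandas 2.3.3 and matplotlib 3.10.9 was used for distances and figures. RefSeq locus tags matched 9094 features, symbols 235.

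The members and lists were chosen with earlier results of these data known. Named were the receptor genes, the 5 features nearest in pattern to each, all annotated genes, core genes by symbol, and neighbours called in both lactose comparisons; further neighbours were named after their values were seen. Alternatives were normalization, centring, a floor for low signals, a filter, other eBayes options, separate fits, a replicate block, other thresholds and leaving out each array; ranks and distances with raised low signals were added after the data were seen. Receptors related by protein sequence were not analysed here.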

Additional observations from a re-analysis of the deposited data

How the results depend on the processing

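Over 14 counts and 9 differences of the receptor genes, 291 alternative values were rated the same and 26 moved, and none reversed. Some of these ratings were fixed in advance, so the tally does not measure robustness. Leaving out a glycerol array cannot change a difference between lactose and glucose. A count without any calls cannot rise under a stricter threshold, and only differences could be rated reversed. A lactose difference was rated the same if it changed by less than the gene's residual SD. A count was rated the same within a ratio of 1.5. A difference between glucose and glycerol was rated the same if it still passed, or still failed, the adjusted p threshold. For the PTH11 type gene TRIRE2_109146 a further quantile normalization gave 5.64 against glucose and 5.59 against glycerol, and signals raised to the low end gave 4.01 in both. For TRIRE2_72627 the difference against glycerol ranged over 2.84 to 3.32 when single arrays were left out. Annotated genes higher in both comparisons fell to 2 without the dimmest 25% of features and 2 over 4-fold, those lower in both to 1 over 4-fold, those higher on glucose than glycerol were 2 over 1.5-fold and 1 to 2 when single arrays were left out, and those lower 1 over 4-fold. Neighbours higher in both were 4 without the dimmest features, 12 over 1.5-fold and 3 over 4-fold, and those lower in both 0, 2 and 0 in these settings and 1 to 2 when single arrays were left out. Neighbours higher on glucose than glycerol were 1 over 4-fold, and those lower 5 over 1.5-fold and 1 over 4-fold. Over 1.5-fold, 2 core genes were lower on lactose than on glucose, and 1 was higher and 2 lower than on glycerol; the count lower than on glucose ranged over 0 to 1 when single arrays were left out (rgs1, without glucose replicate 2). Counts without the dimmest 25% of features fell because the filter removed genes, and no gene of the lists that it kept changed its call. Counts over 1.5-fold and over 4-fold differ through the changed threshold itself. The cause of the other shifts was not tested.

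Between glucose and glycerol, TRIRE2_123806 kept a limma adjusted p under 0.05 in every alternative run that held it, with 0.022 when low signals were raised. The same was true of TRIRE2_72627, with 0.0338 there. The filter against the dimmest 25% of features removed all 3 receptor genes, so it gave no value for them. With the replicate number as a block, the difference for TRIRE2_123806 was -1.53 with an adjusted p of 6.57e-05 in limma, and the block changed no call. Same-numbered arrays deviated from their group means with correlations of r = -0.01, -0.14 and 0.07, so over all features the numbers do not pair the arrays. For both secretin-like genes, however, array 2 exceeded array 1 on each carbon source. Low signals limit TRIRE2_109146 most, since only its lactose arrays stood above the low end. Lists by blastp at several E-values were not run.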

Other observations

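The gene of the cellulase regulator xyr1 (TRIRE2_122208), which activates cellulase and xylanase genes, was singled out after the values were seen. It was the 8th nearest feature to TRIRE2_123806 in pattern, at 0.28, and the 45th to TRIRE2_72627, at 0.38. Its log2 signals were 12.88 and 12.63 on lactose, 8.02 and 7.86 on glucose and 9.31 and 9.46 on glycerol. The carbon catabolite repressor gene cre1 (TRIRE2_120117), at 14.22 and 14.35 on lactose, 13.93 and 13.97 on glucose and 14.26 and 14.02 on glycerol, ranked 2651 for TRIRE2_123806 and 2622 for TRIRE2_72627. The adjacent gene of TRIRE2_123806, TRIRE2_111446, was the 10th nearest feature to TRIRE2_72627, at 0.24.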
